A study of Mus musculus with 26 samples.

Results

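The genes described here build the seal between lung epithelial cells: the claudins Cldn3, Cldn7 and Cldn18, the tight junction proteins Ocln (occludin) and F11r (junctional adhesion molecule A), the scaffold Tjp1 (ZO-1), and Cdh1 (E-cadherin), the adhesion molecule of the neighboring adherens junction. These 7 genes were chosen by name, out of 12394 genes measured, and each was read from its brightest probe set. Tight junctions are strands of claudins and occludin that close the gap between neighboring epithelial cells near the air surface. Scaffold proteins such as Tjp1 tie the strands to actin, and E-cadherin holds the cells together below them. In the lung the claudins set how readily water, ions and protein cross the alveolar and airway lining, and inhaled oxidants such as ozone (O3) are known to make that lining leakier.

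Gene expression was measured in the left lung of male Il10+/+ mice (C57BL/6) and Il10-/- mice (B6.129P2-Il10tmlCgn/J, which lack the anti-inflammatory cytokine interleukin-10 in every cell), all 6 to 8 weeks old. Mice breathed filtered air or 0.3 ppm O3 for 24, 48, or 72 hr, at 23.5 hr a day. Air arrays covered 24 and 48 hr, with 2 for each genotype and time, and were pooled to 4 for each genotype; each O3 group had 3 arrays, so that the 72-hr O3 groups were set against air of shorter exposures. Of 26 arrays, 25 were used. The array left out, replicate 2 of the Il10-/- 24-hr O3 group, correlated with the others at r of 0.847 to 0.879, whereas the lowest r among the other 25 was 0.965. Values are log2 intensities normalized across arrays, and a difference of 1 is a 2-fold difference in signal. The whole left lung was used, so that RNA of epithelial and of other cells was measured together. Fewer epithelial cells and less RNA per cell cannot be told apart.

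The 25 arrays carried the markers of lung epithelium. Over them, the mean log2 values were 14.37 for Sftpc (surfactant protein C of alveolar type 2 cells), 12.84 for Ager (alveolar type 1 cells) and 14.23 for Scgb1a1 (club cells of the airway). The mean level of 9 alveolar type 2 markers lay between 12.35 and 12.55 on every array. The left-out array stood far below the rest for every one of the junction genes: Cldn18 had a log2 value of 4.46 there against 10.44 to 12.06 on the others, Cldn7 had 4.73 against 9.46 to 10.24, and Cdh1 had 4.33 against 9.48 to 10.37. Its value was also lower for Cldn3 (6.78 against at least 11.02), Ocln (4.76 against at least 8.51), F11r (7.40 against at least 10.03) and Tjp1 (8.20 against at least 10.62). On that array the 9 type 2 markers had a median difference of -7.38 from the means of the 23 arrays outside its group, whereas 8 B cell markers had one of 3.88. The Il10 probe set read 3.92 to 4.25 in Il10+/+ mice and 6.29 to 7.71 in Il10-/- mice, except for 3.87 in the library labelled Il10-/- air 48 hr replicate 1. Where this probe set lies relative to the deleted part of the gene is not given in the sources used here. That library reads like the Il10+/+ arrays, and the other Il10-/- ones do not.

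The sequence before the transcription start is shown for Ocln and Cldn7, whose levels stood apart from air in both genotypes and in opposite directions, and for F11r as an example that holds a match. RefSeq's promoter table (GRCm38.p6) held 9 windows for 6 of the 7 genes, and Cdh1 was not among them. Each window of 300 bases, 250 before and 50 after the start, was searched on both strands for the E-box CAGGTG, the core bound by the Cdh1 repressors of the Snail and Zeb families, and for the grainyhead palindrome AACCGGTT. Capitals mark a match in the 250 bases before the start, written 5′ to 3′ in the direction of the gene.
Ocln, chr13:100552719-100552968, minus strand: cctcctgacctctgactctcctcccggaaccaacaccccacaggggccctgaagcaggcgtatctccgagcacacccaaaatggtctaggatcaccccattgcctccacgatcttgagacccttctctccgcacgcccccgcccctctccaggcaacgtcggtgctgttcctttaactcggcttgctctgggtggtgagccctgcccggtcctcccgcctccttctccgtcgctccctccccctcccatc
Cldn7, chr11:69964529-69964778, plus strand: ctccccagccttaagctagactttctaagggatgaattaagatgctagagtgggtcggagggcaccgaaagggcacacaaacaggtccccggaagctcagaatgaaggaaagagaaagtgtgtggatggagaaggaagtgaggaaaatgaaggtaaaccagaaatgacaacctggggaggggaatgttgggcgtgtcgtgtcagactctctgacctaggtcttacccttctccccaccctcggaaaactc
F11r, chr1:171437311-171437560, plus strand: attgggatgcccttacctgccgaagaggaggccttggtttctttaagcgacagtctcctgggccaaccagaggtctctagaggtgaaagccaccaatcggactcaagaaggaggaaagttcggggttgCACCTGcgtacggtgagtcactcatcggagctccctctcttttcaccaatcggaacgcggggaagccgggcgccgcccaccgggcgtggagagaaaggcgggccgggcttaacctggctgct
The 2 windows of Ocln and Cldn7 printed here hold no E-box before the start. The E-box in the F11r window is on the opposite strand, and its first base lies at -122. The second Ocln window (chr13:100552449-100552748) has E-boxes at -213 and -68, before a later start. A later start of Cldn7, 642 bases downstream, has an E-box at -97 and another at -57. An E-box was found somewhere in the windows of 4 genes (F11r, Cldn3, Cldn7 and Ocln), and before a start in 3 of them. It occurs in 20.21% of the 32851 promoters of the table. That share is per window, whereas some of these genes have 2 windows, so it is not on the same footing as the count of genes. The grainyhead palindrome occurs in 0.15% of all promoters and in 0 of these genes.

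Over the exposure the junction genes changed little, and Cdh1 was the only gene with a rise that passed the test. In Il10-/- mice its estimate was 34.5% higher after 48 hr of O3 and 34.6% higher after 72 hr than in air. Of all genes 6.33% and 5.87% passed there. Both Cdh1 calls were lost when certain single arrays were left out, and with only the arrays compared. Cldn7 in Il10+/+ mice at 72 hr had an estimate of the same size, 34.6%, that did not pass. Ocln differed among the 4 exposures with both genotypes in the test and lay lower in O3 in each. None of the other 5 genes passed the test in any comparison with air or between genotypes. Across the 42 comparisons of a gene, a genotype and a time with air, the estimated change of the brightest probe set never exceeded 0.69 on the log2 scale in size, and the 95% interval reached a size of 1 (2-fold) only for Cldn18 at 24 hr in Il10-/- mice.

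**Figure D1:**
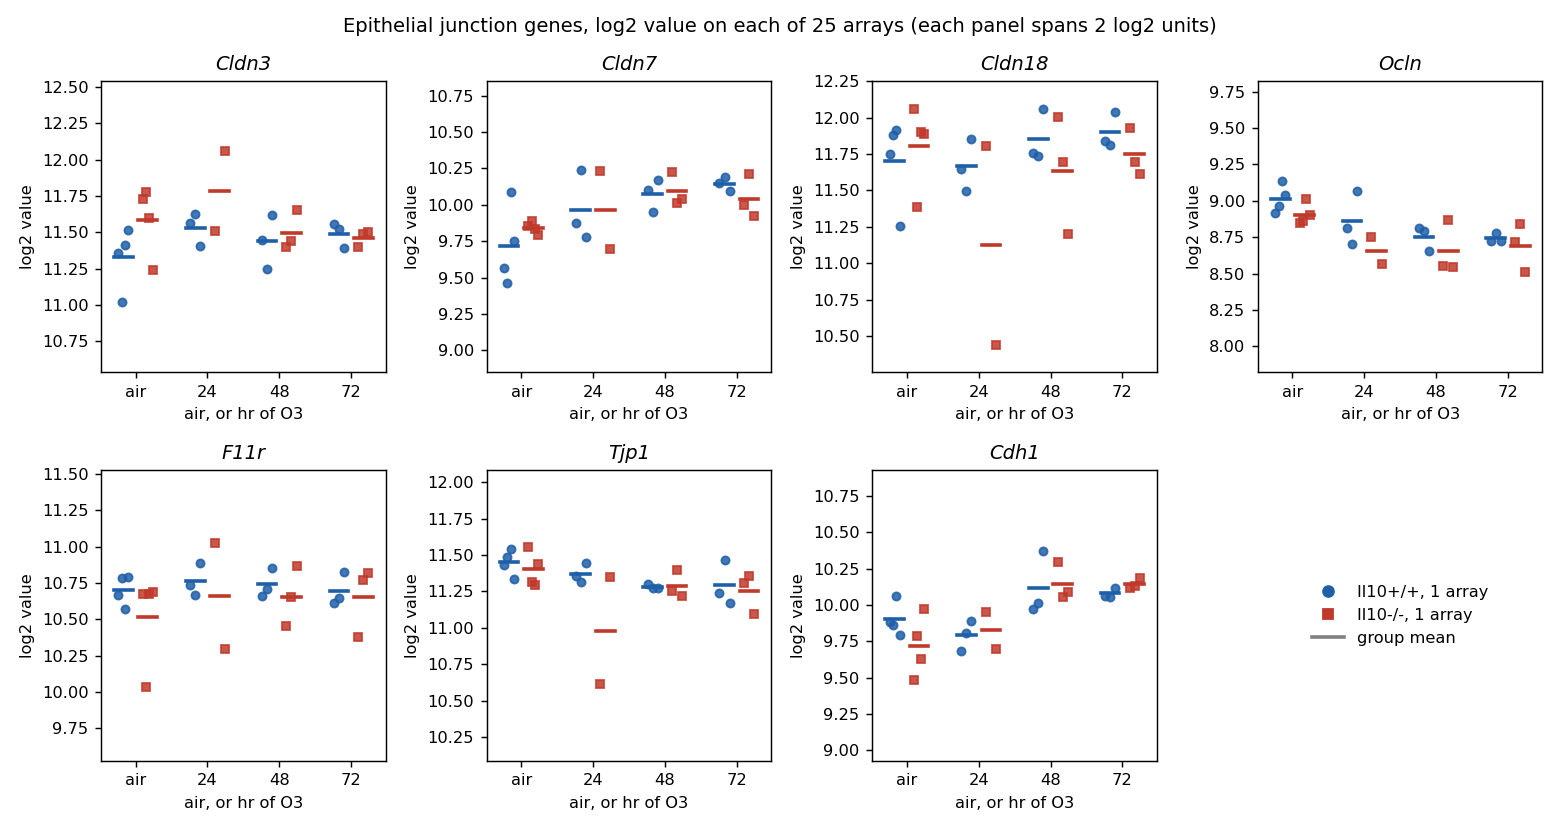
Log2 value of each of the 7 genes on each of 25 arrays, by exposure (air, or hr of O3) and genotype; points are arrays, bars are group means, and every panel spans the same 2 log2 units. Cdh1 in Il10-/- mice sits between 10.06 and 10.29 at 48 and 72 hr, above all 4 air arrays, and the lowest Ocln values are on O3 arrays, whereas the 2 Il10-/- arrays at 24 hr are far apart for Cldn18 and Tjp1.

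Cdh1 carries the adhesion between epithelial cells. In Il10-/- air mice its log2 values were 9.48, 9.79, 9.63 and 9.97. After 48 hr of O3 they were 10.29, 10.06 and 10.09, and after 72 hr 10.12, 10.13 and 10.19. The arrays of both O3 groups lay above all 4 air arrays. The change from air was 0.43 at 48 hr (SE 0.113, limma adjusted p = 0.0243) and 0.43 at 72 hr (SE 0.113, adjusted p = 0.0266), and over the 3 O3 times it was 0.32 (SE 0.0911, adjusted p = 0.0339). After 24 hr the 2 arrays read 9.95 and 9.70, inside the range of air. In Il10+/+ mice the air values were 9.88, 9.86, 10.06 and 9.79, and the 24-hr O3 values were 9.68, 9.81 and 9.89. They were 9.97, 10.01 and 10.37 at 48 hr, and 10.06, 10.06 and 10.12 at 72 hr. These groups overlapped air, and the changes of 0.22 at 48 hr (adjusted p = 0.349) and 0.18 at 72 hr (adjusted p = 0.496) did not pass the test. For Il10-/- mice the share of all genes that passed was 6.33% at 48 hr, 5.87% at 72 hr and 7.55% over the 3 times. With 1 gene of 7 called in each, the junction genes are not marked out from the rest of the array by these counts.

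The Cdh1 change was not shown to differ between genotypes. The difference between genotypes in the mean O3 change of Cdh1 was 0.22, with a 95% interval of -0.04 to 0.49 (adjusted p = 1.00). At 48 and 72 hr the Cdh1 means were 10.12 and 10.08 in Il10+/+ mice and 10.15 in Il10-/- mice at both times, whereas in air they were 9.90 ± 0.11 and 9.72 ± 0.21 (SD, n = 4 each). The order of the 8 group means ran from Il10-/- air through both 24-hr groups and Il10+/+ air to the 4 groups of 48 and 72 hr. In this order, and in that of each other junction gene, all 7 pairs of neighboring groups overlapped. The Cdh1 rise from 24 to 48 hr was 0.33 in Il10+/+ mice (adjusted p = 0.323) and 0.32 in Il10-/- mice (adjusted p = 0.194), and neither passed. The Il10-/- calls were lost when an array was left out: the 48-hr call without replicate 1 of air at either time, or without replicate 1 or 3 of the 48-hr O3 group (adjusted p up to 0.105), and the 72-hr call without either of these air arrays or any 72-hr O3 array (adjusted p up to 0.128). The call over the 3 times was lost without either of these air arrays, replicate 1 of the 24-hr or replicate 3 of the 72-hr O3 group (adjusted p up to 0.156). The air array of 48 hr among these is the library with the Il10 value of 3.87. With only the arrays compared, the adjusted p was 0.112 at 48 hr, 0.0654 at 72 hr and 0.112 over the 3 times. With air of the same time the 48-hr change was 0.35 (limma adjusted p = 0.224). With the letter c that ends 5 source names as a covariate, the change over the 3 times had a limma adjusted p of 0.0515. Of the Il10-/- O3 arrays only 24-hr replicate 1 has the letter, and of the Il10-/- air arrays only 24-hr replicate 2 lacks it. The letter and O3 thus largely coincide in this genotype and can hardly be told apart.

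Genes of dividing cells moved with Cdh1. Of 9 measured, 8 were higher over the O3 times in each genotype, with medians of 1.37 and 1.59 on the log2 scale. Their mean level was 5.75 to 6.28 on the Il10-/- air arrays, 5.58 to 6.71 at 24 hr, 7.79 to 8.22 at 48 hr and 7.72 to 7.93 at 72 hr. In Il10+/+ mice it was 6.01 to 6.31 in air, 6.01 to 6.35 at 24 hr, 7.60 to 8.19 at 48 hr and 8.03 to 8.20 at 72 hr. The part of these genes in the Cdh1 change was not tested. The gene whose values were most like those of Cdh1 over the 25 arrays was Incenp, a subunit of the complex that guides chromosome segregation, with r = 0.876 (rho = 0.862), followed by Tceal9 at 0.867 and Pole, the catalytic subunit of DNA polymerase epsilon, at 0.864. Without the 2 arrays farthest from the Cdh1 median, r with Incenp was 0.871. These were the highest of all genes on the array, the arrays share their groups, and the values are descriptions.

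**Figure D2:**
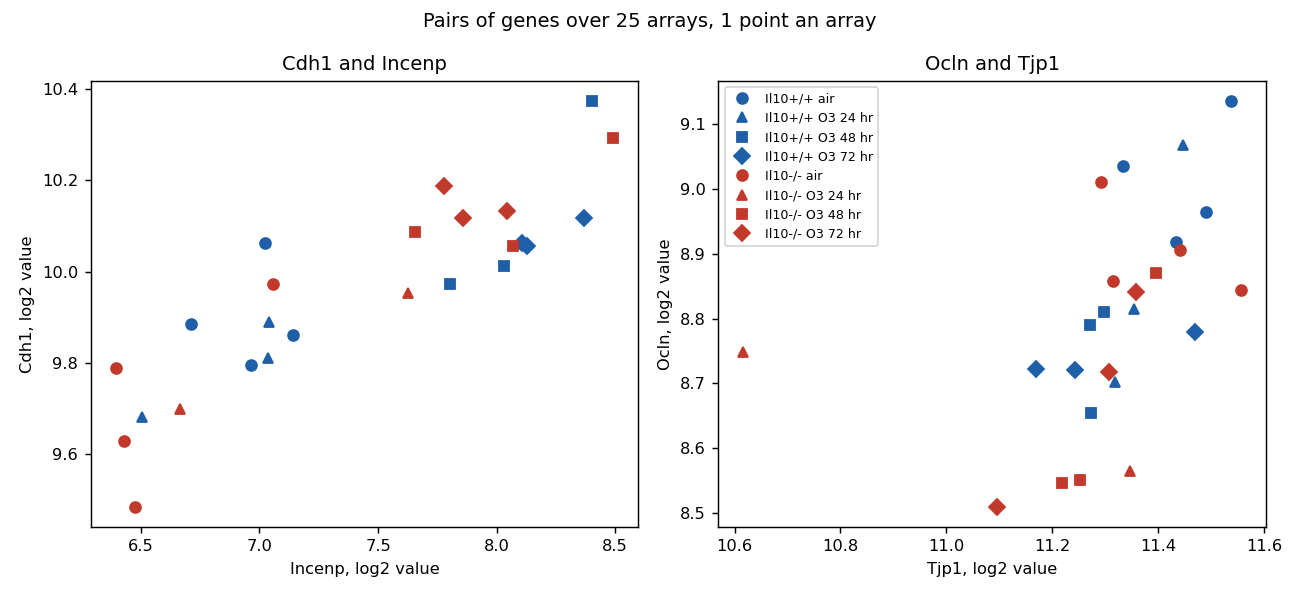
Log2 values of Cdh1 against Incenp (left) and of Ocln against Tjp1 (right) over 25 arrays; 1 point is 1 array, color gives genotype and shape the exposure. Cdh1 and Incenp are both high at 48 and 72 hr (r = 0.876), and 1 Il10-/- 24-hr O3 array at a Tjp1 value of 10.62 lies apart in the right panel, where r is 0.463 with that group and 0.708 without it.

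Ocln, a membrane protein that lines tight junction strands with the claudins, had lower values in O3. In Il10+/+ air mice its log2 values were 8.92 and 8.96 at 24 hr and 9.14 and 9.04 at 48 hr. After 48 hr of O3 they were 8.81, 8.79 and 8.65, and after 72 hr 8.72, 8.78 and 8.72. Both groups lay below all air arrays, while the 24-hr values of 8.81, 8.70 and 9.07 overlapped them. In Il10-/- air mice the values were 8.84 and 8.86 at 24 hr and 9.01 and 8.91 at 48 hr. In both genotypes the 48-hr air values lay above the 24-hr ones, and O3 was set against both pooled. The Il10-/- O3 values were 8.75 and 8.57 after 24 hr, 8.55, 8.87 and 8.55 after 48 hr, and 8.72, 8.84 and 8.51 after 72 hr. The arrays at 24 and 72 hr lay below air and those at 48 hr overlapped it. The mean change over the O3 times was -0.23 in Il10+/+ mice (SE 0.0799, adjusted p = 0.127) and -0.24 in Il10-/- mice (SE 0.0819, adjusted p = 0.0827), so that neither genotype alone passed the test. Their difference was -0.01, with an interval of -0.25 to 0.23. In the F test of exposure over both genotypes, Ocln passed (adjusted p = 0.0325), as did Cdh1 (adjusted p = 0.00597), and Cldn7 did not (adjusted p = 0.0632). Of all genes 17.2% passed that F test, so that 2 of 7 does not mark these genes out. Ocln no longer passed when any of 5 arrays was left out (in Il10+/+ mice replicate 2 of air at 48 hr, or replicate 3 of the 48-hr or 72-hr O3 group, and in Il10-/- mice either air array of 48 hr), whereas Cdh1 passed each time. Marker lists of other cell types went both ways over the O3 times. In Il10+/+ and Il10-/- mice the medians were 0.14 and 0.25 for macrophages and 0.08 and 0.06 for alveolar type 2 cells. They were -0.49 and 0.89 for neutrophils, -0.52 and -0.40 for B cells and -0.25 and -0.09 for T cells. Of 12 endothelial markers 2 had estimates above 0 in Il10+/+ mice and 1 in Il10-/- mice (medians -0.19 and -0.28), and 0 and 3 passed. Of 10 fibroblast and smooth muscle markers the same counts were 2 and 1 (medians -0.19 and -0.23), and 0 passed. The mean level of the endothelial markers was 10.78 to 10.90 on Il10+/+ air arrays and 10.52 to 10.69 at 72 hr, and that of the fibroblast and smooth muscle markers 10.83 to 11.20 and 10.68 to 10.91. Their part in the Ocln values was not tested.

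Cldn7, a claudin of the basolateral membrane as well as of the tight junction, had higher estimates in O3. In Il10+/+ air mice the log2 values were 9.57 and 9.46 at 24 hr and 10.09 and 9.75 at 48 hr. In O3 they were 9.87, 10.24 and 9.78 at 24 hr, 10.10, 9.95 and 10.17 at 48 hr, and 10.15, 10.19 and 10.09 at 72 hr. The 72-hr arrays lay just above the highest air array, and those of 24 and 48 hr overlapped air. The change was 0.25 at 24 hr, 0.36 at 48 hr (adjusted p = 0.187) and 0.43 at 72 hr (adjusted p = 0.106), and 0.34 over the 3 times (SE 0.109, adjusted p = 0.0865). These changes are from air of both times pooled, and the 48-hr air values lay above the 24-hr ones. Beside air of the same time, the 24-hr O3 arrays lay above air and the 48-hr ones overlapped it. The steps between times thus depend on the air used. In Il10-/- air mice the values were closer together, at 9.85, 9.89, 9.83 and 9.79. They were 10.23 and 9.69 after 24 hr, 10.22, 10.02 and 10.04 after 48 hr, and 9.92 to 10.21 after 72 hr. All arrays of 48 and 72 hr lay above air, with changes of 0.25 (adjusted p = 0.344) and 0.20 (adjusted p = 0.456). Cldn7 thus did not pass in either genotype. Without replicate 1 of Il10+/+ air at 48 hr, the highest of that group, its mean change in Il10+/+ mice was 0.47 (limma adjusted p = 0.0157). The test also turned on either Il10-/- 24-hr O3 array, which enters this comparison only through the spread shared by all groups.

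Cldn18, the claudin most typical of alveolar epithelium, showed its lowest value at 24 hr in Il10-/- mice, on 1 of 2 arrays. The arrays read 11.80 and 10.44, against 12.06, 11.38, 11.90 and 11.89 in Il10-/- air. The change of -0.69 (SE 0.274, interval -1.25 to -0.12) had an adjusted p of 0.195. Values at 48 hr, of which the lowest was 11.20, and at 72 hr (11.93, 11.70 and 11.61) overlapped air. In Il10+/+ mice all 13 arrays lay between 11.25 and 12.06. Its second probe set gave a change in Il10-/- mice of -1.14 at 24 hr (SE 0.363, adjusted p = 0.123 over all probe sets) and of -0.66 over the O3 times (adjusted p = 0.147), and it did not pass either.

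Tjp1, the scaffold under the strands, had estimates below air at every time in both genotypes. Over the O3 times they were -0.13 in Il10+/+ and -0.23 in Il10-/- mice. The marker medians there were -0.19 and -0.28 for endothelium and 0.08 and 0.06 for alveolar type 2 cells. The part of endothelial or other cells in the Tjp1 values was not tested. At 24 hr in Il10-/- mice the arrays read 10.62 and 11.35, against 11.56, 11.31, 11.29 and 11.44 in air, a change of -0.42 (SE 0.140, adjusted p = 0.120). The low array was replicate 1, whereas the low array for Cldn18 was replicate 3. Each call turned on which array was kept: without replicate 3 Tjp1 passed at 24 hr, and without replicate 1 Cldn18 did. In each of these the group is 1 array, whose spread is assumed to be that of the other groups. In Il10+/+ mice the Tjp1 air values of 11.43, 11.49, 11.54 and 11.33 all lay above the 48-hr O3 values of 11.30, 11.27 and 11.27, a change of -0.17 (adjusted p = 0.538).

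Cldn3 and F11r passed in no comparison. Cldn3, a claudin found in alveolar type 2 and airway cells, had group means of 11.33 ± 0.21 in Il10+/+ air and 11.58 ± 0.24 in Il10-/- air (SD, n = 4 each). Its O3 means lay between 11.44 and 11.53 in Il10+/+ mice and between 11.46 and 11.78 in Il10-/- mice. The highest of the 25 values, 12.06, was on Il10-/- 24-hr O3 replicate 3, the array with the lowest Cldn18. The genotype difference of Cldn3 over the 4 exposures (Il10-/- minus Il10+/+) was 0.13 (SE 0.0750, limma adjusted p = 0.436). Its dimmer probe sets gave 0.30 (SE 0.0974), 0.19 (SE 0.0849) and 0.11 (SE 0.0651). Their limma adjusted p values over all probe sets were 0.141, 0.298 and 0.472, so that none passed. F11r, an adhesion molecule of the tight junction that is also present on endothelial cells and leukocytes, had group means between 10.52 and 10.77. Its change over the O3 times was 0.03 in Il10+/+ mice (interval -0.24 to 0.30) and 0.14 in Il10-/- mice (interval -0.14 to 0.42). Its lowest value, 10.03, was on Il10-/- air 24 hr replicate 2, while the other 3 air arrays of that genotype read 10.67, 10.67 and 10.69. Without that array the F11r change in Il10-/- mice was -0.02, and with the letter c as a covariate it was 0.44 (adjusted p = 0.0193). The source names of those other 3 air arrays end in c, and that of replicate 2 does not. Among these air arrays the letter and the low value thus cannot be told apart. Of the Il10-/- O3 arrays only 24-hr replicate 1 has the letter, so that it also largely coincides with air.

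**Figure D3:**
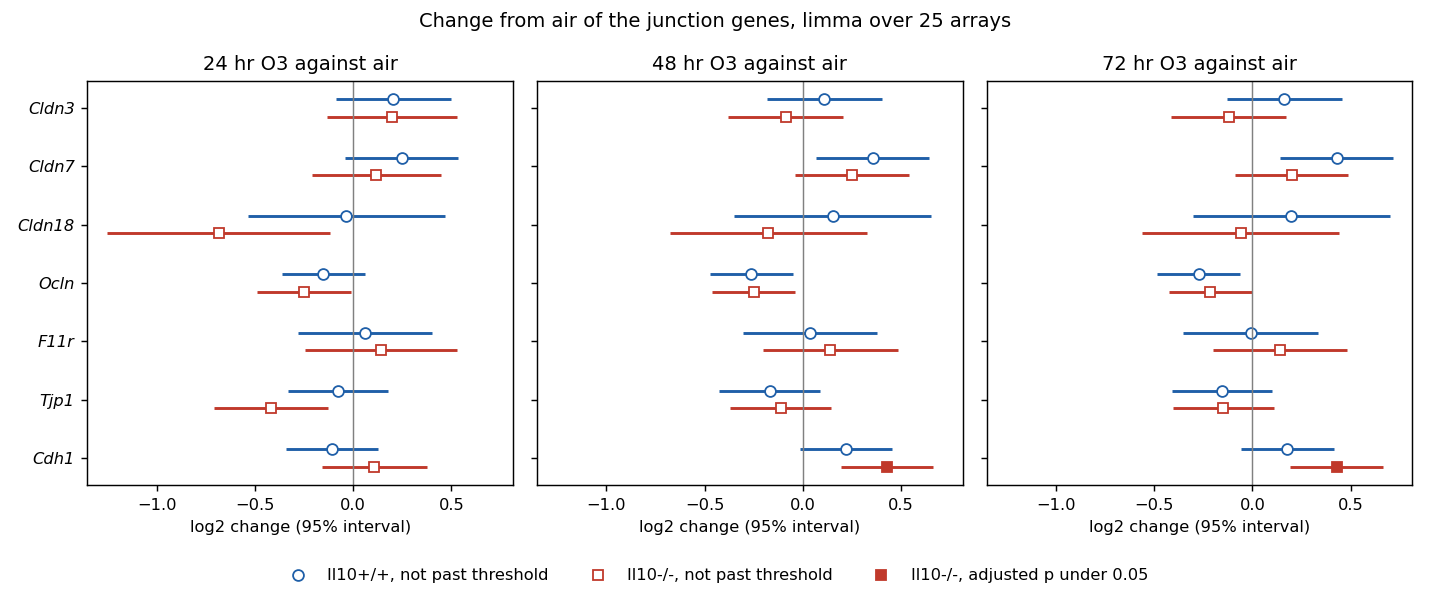
Log2 change from air of the 7 genes after 24, 48, and 72 hr of O3 in Il10+/+ (circles) and Il10-/- mice (squares), from limma over 25 arrays; lines are 95% intervals and filled symbols have an adjusted p under 0.05. The filled symbols are Cdh1 at 48 and 72 hr in Il10-/- mice, both at 0.43, and the widest interval is that of Cldn18 at 24 hr in Il10-/- mice.

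Set against air, then, 0 of the 7 genes passed limma's test in Il10+/+ mice at 24, 48, or 72 hr, where 0.0484%, 3.71% and 3.15% of all genes did. At an unadjusted p under 0.05 the counts of junction genes were 0, 2 and 2, and the shares of all genes 5.89%, 16.4% and 15.3%. Over the 3 times 0 passed, against 3.66% of all genes, and 2 were at an unadjusted p under 0.05, against 16.5% of all genes. In Il10-/- mice at 24 hr 0 passed, against 2.09% of all genes, and 3 were at an unadjusted p under 0.05, against 17.1% of all genes. Arrays stood wholly above air in 5 of the 42 comparisons (for Il10+/+ mice Cldn7 at 72 hr, for Il10-/- mice Cldn7 and Cdh1 at both later times) and wholly below in 5 (Ocln in 4 and Tjp1 in 1), and 32 overlapped. Over all genes the share that stood apart was 7.99%, 17.5% and 18.2% at 24, 48, and 72 hr among the Il10+/+ arrays, and 17.3%, 16.5% and 20.9% among the Il10-/- ones. Between O3 times, 0 of 7 passed from 24 to 48 hr in Il10+/+ mice (0.888% of all genes passed, and 1 of the 7 and 10.2% of all genes were at an unadjusted p under 0.05) and in Il10-/- mice (3.29% of all genes passed, and 2 of the 7 and 19.1% of all genes were under 0.05). From 48 to 72 hr, 0% of all genes passed in either genotype, with 204 and 329 genes and none of these 7 at an unadjusted p under 0.05.

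The study asked how the loss of Il10 changes the lung's response to O3. No junction gene differed between genotypes under limma: 0 of 7 passed in air or after 24, 48, or 72 hr of O3, where 0.00807%, 0.662%, 0.00807% and 0.0242% of all genes did. At an unadjusted p under 0.05 there was 1, Tjp1 at 24 hr, where 12.3% of all genes were under it. In all 28 comparisons of a gene and an exposure, the arrays of the genotypes overlapped, while over all genes the share that did not overlap was 4.43% in air and 20.9%, 8.12% and 9.43% after 24, 48, and 72 hr. Over the 4 exposures 0 of 7 passed (1 at an unadjusted p under 0.05, Ocln at -0.12 in Il10-/- mice with an adjusted p of 0.339), while 1.75% of all genes did and 14.3% were at an unadjusted p under 0.05. The interval of this genotype difference reached furthest for Cldn18, from -0.47 to 0.07. For the genotype difference in the mean O3 change 0% of all genes passed, with 504 genes and none of these 7 at an unadjusted p under 0.05. For the F test of whether exposure acted differently by genotype 0% passed as well, with 417 genes and again none of the 7. The methods' two-way analysis of variance, at an unadjusted p under 0.01, called 2 of the 7 for exposure, Ocln and Cdh1, where 16.8% of all genes passed. It called 0 for genotype (5.38% of all genes) and 0 for the interaction (0.799%).

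Among the genes themselves the values went together in a few pairs. Over the 25 arrays Cldn7 and Cdh1 had r = 0.543 ( 0.533 without the 2 Il10-/- 24-hr O3 arrays). Ocln and Tjp1 had r = 0.463, and 0.708 without those 2 arrays, and Ocln ran against Cdh1 at r = -0.405 and -0.526. The r of -0.617 between Cldn3 and Cldn18 fell in size to -0.330 without them, since replicate 3 holds the highest Cldn3 and the lowest Cldn18. Of the whole array, the values most like Cldn7 were those of Ap1m2, the epithelial subunit of the clathrin adaptor that sorts proteins to the basolateral membrane (r = 0.855), Ldha (0.837) and Cib1 (0.828). Those most like Ocln were Fermt2, a kindlin of integrin adhesions (0.812), AI597479 (0.810) and the tetraspanin Cd81 (0.808). Tjp1 was most like Cav2, a caveolin (0.928), Stag2 (0.926) and Eps15 (0.908), and without its 2 farthest arrays its r with Cav2 was 0.763. Cldn18 was most like Pip4p2 (0.874), Adgra2 (0.872) and Tusc3 (0.857), F11r like Spag7 (0.882) and Rchy1 (0.878), and Cldn3 like Prss8, the epithelial membrane protease prostasin (0.779), Fbxo31 (0.771) and Dnm2 (0.768). The arrays share their groups, and a correlation over them describes only this set.

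The other claudins split by gene. Of 15 measured, 0 passed over the O3 times in Il10+/+ mice. In Il10-/- mice 2 passed upward and 1 downward. The medians were -0.04 and -0.03 against all-gene medians of -0.013 and -0.0089. Cldn4, a sealing claudin of airway and alveolar cells, rose by 0.71 in Il10-/- mice (SE 0.197, adjusted p = 0.0309), and its estimate in Il10+/+ mice was 0.66 (adjusted p = 0.0603). Cldn2, a claudin that forms a pore for cations and water, rose by 0.67 in Il10-/- mice (SE 0.152, adjusted p = 0.00778), with an estimate of 0.39 in Il10+/+ mice (adjusted p = 0.160). Both were dim probe sets, with mean log2 values of 5.67 and 5.39. Cldn5, which belongs mainly to endothelium, fell by 0.24 on the log2 scale in Il10-/- mice (SE 0.0639, adjusted p = 0.0239). Of 12 endothelial markers, 3 were lower there, Tie1 (-0.60), Pecam1 (-0.41) and Cldn5 itself, with a median of -0.28. The mean level of these markers was 10.80 to 10.89 on Il10-/- air arrays and 10.37 to 10.66 at 72 hr, and their part in the Cldn5 value was not tested. Cldn10 was higher in Il10-/- mice over the 4 exposures by 0.28 (adjusted p = 0.0485).

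The partners of these proteins showed few calls. Of 7 other junctional adhesion and MARVEL-domain genes, 0 passed in either genotype, and Cxadr, a receptor-like adhesion molecule of the tight junction, had the largest estimate, 0.30 in Il10+/+ mice (adjusted p = 0.440). Of 8 measured scaffolds other than Tjp1, 1 was higher in Il10-/- mice, Ybx3 (ZONAB), a Y-box protein that binds ZO-1 and nucleic acids, at 0.42 (SE 0.118, adjusted p = 0.0309). Of 14 genes of the apical polarity complexes, 3 were lower in Il10-/- mice: Mpdz (-0.35), a scaffold with many PDZ domains, Prkcz (-0.29), the atypical protein kinase C zeta, and Dlg1 (-0.24), a scaffold of the lateral membrane. None of the 14 passed in Il10+/+ mice. Of 10 adherens junction partners of Cdh1, among them the catenins Ctnnb1 and Ctnna1, 0 passed in either genotype, and Ctnnb1 had estimates of 0.08 and -0.0033. Of 11 desmosome genes 0 passed, with medians of 0.05 and 0.08, and of 9 regulators of junction opening, such as the myosin kinase Mylk, 0 passed.

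**Figure D4:**
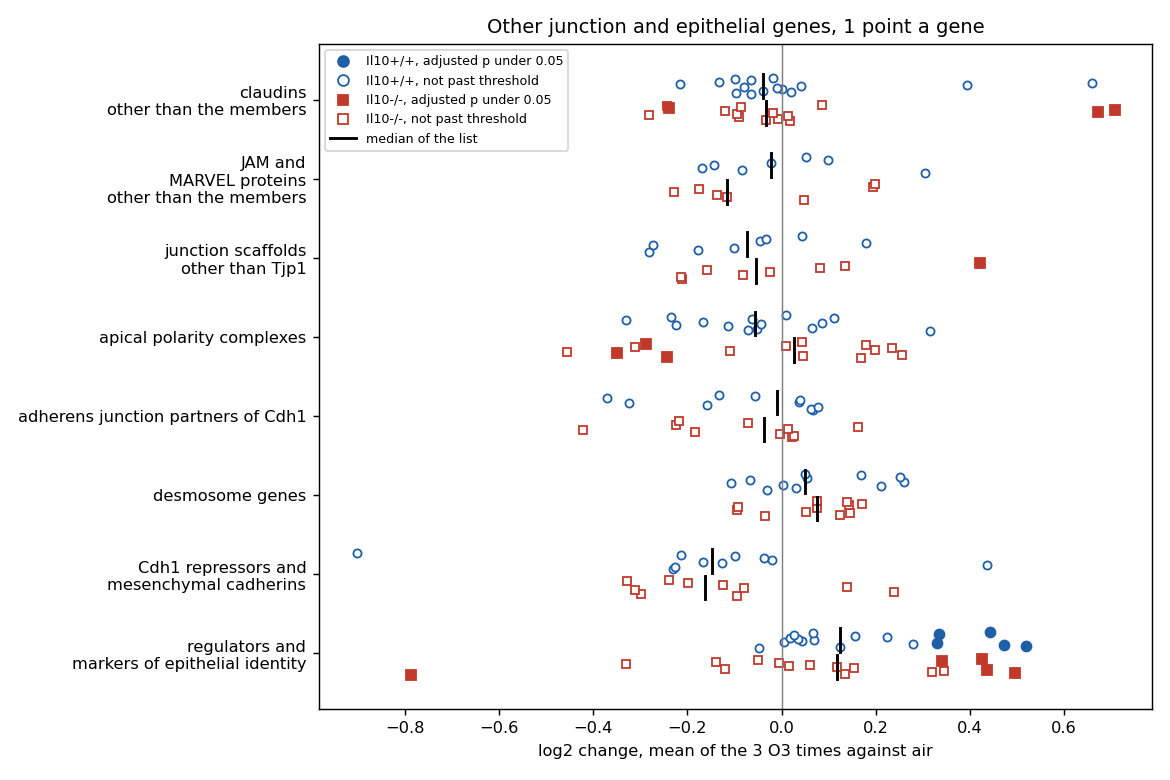
Log2 change of other junction and epithelial genes over the mean of the 3 O3 times against air, by list; circles are Il10+/+ and squares Il10-/- mice, filled symbols have an adjusted p under 0.05, and black bars are list medians. Most points lie near 0, with Cldn4 above 0.6 in both genotypes and Cldn2 above 0.6 in Il10-/- mice. In the list of epithelial identity filled symbols of both genotypes stand above 0, and that of Cdh16 in Il10-/- mice stands below 0.

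Among the lists of junction and epithelial genes, that of epithelial identity held the most calls. Of 17 measured, 5 rose over the O3 times in Il10+/+ mice, and 4 rose and 1 fell in Il10-/- mice, with medians of 0.12 in both. Of all genes 3.66% and 7.55% passed in these comparisons. Elf3, an epithelial Ets factor, rose by 0.52 (adjusted p = 0.0146) in Il10+/+ and 0.50 (adjusted p = 0.0146) in Il10-/- mice. Esrp2, an epithelial splicing regulator, rose by 0.33 (adjusted p = 0.0179) and 0.44 (adjusted p = 0.00144). The membrane protease St14 (matriptase) rose by 0.44 and 0.43, and its inhibitor Spint1 by 0.33 and 0.34. Epcam, an adhesion molecule that binds Cldn7, rose by 0.47 in Il10+/+ mice (adjusted p = 0.0362). Cdh16, a cadherin best known from kidney, fell by 0.79 in Il10-/- mice (adjusted p = 0.0400). The mean level of this list ran from 7.72 to 8.06 on Il10+/+ air arrays and from 8.00 to 8.06 at 72 hr.

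Of 10 genes made of the Cdh1 repressors and mesenchymal cadherins, 0 passed by O3 in either genotype. Their medians were -0.15 in Il10+/+ and -0.16 in Il10-/- mice. Zeb1, a repressor of Cdh1, had estimates of -0.21 (adjusted p = 0.339) and -0.33 (adjusted p = 0.0777), and it was lower in Il10-/- than in Il10+/+ mice over the 4 exposures by 0.32 on the log2 scale (adjusted p = 0.0314). Snai1 had estimates of 0.44 (adjusted p = 0.432) and 0.24 (adjusted p = 0.682). Among markers of epithelial cell types, of 9 alveolar type 2 markers 1 rose in Il10-/- mice (Sftpd, 0.32), of 8 type 1 markers 1 fell there (Cav1, -0.29), of 8 club cell markers Hp rose in both genotypes (0.31 and 0.34), and of 6 ciliated cell markers Tppp3 fell in both (-0.54 and -0.72). None of the defining markers Sftpc, Ager and Scgb1a1 was called in any of these.

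The 2 Il10-/- arrays kept at 24 hr of O3 differed from each other in other genes too. Set against the means of the other 23 arrays, replicates 1 and 3 had median differences of 0.03 and -0.27 over the 7 junction genes, -0.07 and -1.86 over 9 genes of dividing cells, -0.21 and -1.17 over 8 B cell markers, and 0.87 and 1.45 over 7 neutrophil markers. The 9 alveolar type 2 markers differed by -0.03 and 0.08. Without this group, the Cdh1 calls at 48 and 72 hr in Il10-/- mice had adjusted p values of 0.0155 and 0.0164.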

How the data were processed

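Total RNA of left lungs was hybridized to 26 Affymetrix GeneChip arrays. The authors made the deposited log2 values in RMAExpress, by Robust Multichip Average (RMA), over all arrays together, so that the array left out here shaped the scale of the rest; the version is not given in the sources used here. Of probe sets with 1 symbol in GEO's annotation (20393 of 22690), the brightest of each gene was kept. The study's methods also leave out an array of the Il10-/- 24-hr O3 group, without naming it.

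A model with a mean for each of 8 groups was fitted with limma 3.58.1 in R 4.3.3, and Benjamini-Hochberg adjusted p-values were taken over all 12394 genes, with a threshold of 0.05. The sources used here do not state whether each array came from a separate mouse, and p-values measure the spread between arrays. Members, lists and tests were chosen with earlier results of these data known. Named are the 7 genes, up to 4 called genes a list (more in that of epithelial identity), the genes most like each of the 7, and Il10. Sftpc, Ager and Scgb1a1 are named as cell markers, though not called. Cxadr, Ctnnb1, Ctnna1, Mylk and Snai1 were named after their values were seen. The steps were tested on simulated data. Promoters came from RefSeq, and matplotlib 3.10.9 (Python 3.11.15) drew the figures.

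Alternatives were all 26 arrays, only the arrays compared, air of the same time, a replicate block, array weights, a covariate for the 5 arrays whose source name ends in c, median centring, averaged probe sets, leaving out the dimmest genes or each array in turn, and, chosen after seeing the data, leaving out the Il10-/- 24-hr O3 group.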

Additional observations from a re-analysis of the deposited data

Results flagged for a closer look

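F11r on Il10-/- air 24 hr replicate 2 lay far from the other 3 air arrays of that genotype: the gap to the nearest took up a share of 0.976 of the group's whole range. Of 14 groups of 4 arrays looked at, 1 was picked out this way, and chance picks out about 1 in 20.

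For Cldn3 after 72 hr of O3, each of the 3 Il10+/+ arrays lay above the mean of its air group and each of the 3 Il10-/- arrays below that of its own. The mean change in Il10-/- mice minus that in Il10+/+ mice was -0.283. This difference at 72 hr was not tested by itself. For Cldn3 the F test of whether exposure acted differently by genotype did not pass (limma adjusted p = 1.00).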

How the results depend on the processing

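Depth does not apply to arrays; their number limits what could be called, and no measure of signal over background was used. With all 26 arrays 0 of the 7 genes was called at 48 or 72 hr or over the O3 times in Il10-/- mice. Nor was any called in the F test of exposure. Calls over all genes in these 4 fell to 97, 47, 302 and 697 from 785, 728, 936 and 2134. Signs reversed for the change over O3 in Il10-/- mice of Cldn7 (-0.39), F11r (-0.22) and Cdh1 (-0.29). They also reversed for the genotype difference of Cldn3 (-0.28) and Cldn7 (-0.42). With only the arrays compared 0 was called at 48 hr, 72 hr or over the O3 times in Il10-/- mice. Cdh1 kept its direction there (limma adjusted p = 0.112, 0.0654 and 0.112). Calls over all genes were 581, 796 and 411, against 785, 728 and 936 in the main fit. With air of the same time 0 was called at 48 hr in Il10-/- mice (Cdh1 0.35, limma adjusted p = 0.224), and calls over all genes fell to 371 from 785.

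Replicate numbers were not used as pairs in the main fit. The mean r of deviations from group means was 0.116 over 96 same-numbered pairs (from -0.305 to 0.461). It was -0.060 over 184 others, and this difference was not tested. With the replicate block 0 was called over the O3 times in Il10-/- mice (Cdh1 0.30, adjusted p = 0.0668), and F11r in Il10+/+ mice was -0.0034. Calls over all genes in that Il10-/- comparison rose to 1040 from 936. With array weights 1 gene, Cldn7, was called in Il10+/+ mice at 48 hr, 72 hr and over the O3 times (0.40, adjusted p = 0.00196), where calls over all genes rose to 2058, 1613 and 1628 from 460, 391 and 454. With the letter c as a covariate 2 genes, F11r and Cdh1, were called at 48 and 72 hr in Il10-/- mice and 1, Cdh1, in the F test of exposure. Calls over all genes there rose to 881, 1164 and 2435 from 785, 728 and 2134. Over the O3 times in Il10-/- mice F11r passed (0.44, limma adjusted p = 0.0193) and Cdh1 did not (0.35, limma adjusted p = 0.0515). The sign reversed for F11r in Il10+/+ mice (-0.027), Cldn18 in Il10-/- mice (0.073) and the genotype difference of Cldn7 (-0.0087). With median centring the change of Cldn3 in Il10-/- mice was 0.012 and the genotype difference of Cdh1 0.0047, and with the mean of probe sets that of Cldn3 in Il10-/- mice was 0.029, each of opposite sign and near 0. Of the Il10-/- air arrays only 24 hr replicate 2, with the lowest F11r value, lacks the letter c. The letter and that value thus cannot be told apart among them. Of the Il10-/- O3 arrays only 24 hr replicate 1 has the letter, so that in this genotype the letter and exposure largely coincide. The cause of the other shifts was not tested.

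Leaving out each array in turn, the number of genes called ran from 0 to 1 at 48 and 72 hr in either genotype, at 24 hr in Il10-/- mice and between genotypes at 24 hr and over the 4 exposures, from 0 to 1 over the O3 times in Il10+/+ mice, from 0 to 2 over the O3 times in Il10-/- mice, from 1 to 4 in the F test of exposure and from 0 to 1 in that of the interaction. The arrays that added calls at 24 hr, between genotypes or in the interaction were Il10-/- O3 24 hr replicate 1 (Cldn18) and 3 (Tjp1). Where signs turned, values ran from -0.046 to 0.018 for the genotype difference of Cdh1, from -0.055 to 0.079 for that of Cldn7, from -0.044 to 0.177 for Cldn18 in Il10+/+ mice, from -0.118 to 0.088 for Cldn3 in Il10-/- mice, and from -0.020 to 0.262 and -0.015 to 0.059 for F11r in Il10-/- and Il10+/+ mice. Of the single values, 693 kept direction and side of the threshold, 32 reversed, 21 lost the threshold and 9 gained it. Only the Cdh1 changes in Il10-/- mice at 48 hr, 72 hr and over the O3 times were past the threshold at first. All 21 losses are thus theirs, and most of the 693 were values not called in the first place. Of the counts of genes called, 452 stayed equal or close and 49 moved. Calls over all genes with an array left out are not given here.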
